A study of Mus musculus with 19 samples.

Results

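Phospholipases A2 cut the middle fatty acid from membrane phospholipids, leaving a free fatty acid and a lysophospholipid. The 8 genes described here are those of the liver array table whose symbol is Pla2g4a, Pla2g6, Pla2g7, Pla2g12a, Pla2g12b, Pla2g15, Pla2g2d or Pla2g5, out of 18788 distinct gene symbols. Each was measured by 1 probe, with a value on all 19 arrays, and all 8 passed the filter on missing values. The livers came from wild-type B6 mice and from B6 mice without 5-lipoxygenase (5LO KO), all 20 weeks old, which had eaten either normal chow or an atherogenic chow rich in fat, cholesterol and cholate for 16 weeks. Chow was eaten by 5 animals of each genotype, the atherogenic diet by 4 wild types and 5 knockouts. Each array carried 1 mouse in Cy5 and a wild-type pool of the same diet in Cy3, made from 5 livers for chow and from 4 for the atherogenic diet. The labels do not say whether the pooled animals are those also hybridised singly.

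The family bears on this knockout because arachidonic acid, the substrate of 5-lipoxygenase, is held in membrane phospholipids until a phospholipase A2 frees it. Cytosolic enzymes act on membranes inside the cell, the calcium-dependent Pla2g4a with a preference for arachidonate and Pla2g6 without need of calcium, and Pla2g15 works in lysosomes. Secreted members such as Pla2g2d, Pla2g5 and Pla2g12a act outside the cell, Pla2g12b lacks catalytic activity and is known from the liver for its part in lipoprotein secretion, and Pla2g7, the plasma platelet-activating factor acetylhydrolase, removes short or oxidised acyl chains and circulates on lipoproteins.

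RefSeq promoters of GRCm38.p6, 250 bases before to 50 after a gene's start, were found for all 8 genes. They are shown for the 3 genes called in a comparison of the diets below, a pair that was higher and 1 that was lower on the atherogenic diet. The 5 motifs searched on both strands were GAGGAA, the core bound by PU.1 and other ETS factors, TGANTCA (AP-1), TATAAA (known from core promoters), TTGCNNAA (C/EBP) and TCACNCCAC (sterol element). Capitals mark a match on either strand.
Pla2g7, chr17:43568201-43568500, plus strand: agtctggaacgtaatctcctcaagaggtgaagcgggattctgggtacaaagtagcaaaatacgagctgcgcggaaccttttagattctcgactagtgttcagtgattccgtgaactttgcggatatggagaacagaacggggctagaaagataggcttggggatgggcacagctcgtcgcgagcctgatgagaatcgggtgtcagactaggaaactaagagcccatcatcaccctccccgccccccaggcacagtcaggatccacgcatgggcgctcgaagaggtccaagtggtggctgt
Pla2g4a, first of its 2 starts, chr1:149961241-149961540, minus strand: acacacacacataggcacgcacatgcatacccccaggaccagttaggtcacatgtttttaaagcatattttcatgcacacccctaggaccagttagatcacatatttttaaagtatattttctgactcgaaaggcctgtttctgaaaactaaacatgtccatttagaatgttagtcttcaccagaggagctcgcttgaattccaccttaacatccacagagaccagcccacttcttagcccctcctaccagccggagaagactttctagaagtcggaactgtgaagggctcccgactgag
Pla2g12a, chr3:129880934-129881233, plus strand: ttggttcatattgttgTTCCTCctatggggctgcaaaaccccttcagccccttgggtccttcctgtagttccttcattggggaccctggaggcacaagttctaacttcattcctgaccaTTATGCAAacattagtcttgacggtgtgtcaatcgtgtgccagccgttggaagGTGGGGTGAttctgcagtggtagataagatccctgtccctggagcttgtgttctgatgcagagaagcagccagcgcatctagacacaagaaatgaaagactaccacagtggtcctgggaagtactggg

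None of the 5 motifs was spelled in the windows of Pla2g7 or of the first start of Pla2g4a. The second start of Pla2g4a (chr1:149922390-149922689, minus strand) held TATAAA once, and which start the measured transcript uses was not analysed. The window of Pla2g12a held 3 of them, namely GAGGAA, TTGCNNAA and TCACNCCAC, each once and without overlap. Across 32851 promoters of this length these were present in 28.3%, 10.8% and 1.24%. The other motifs, TGANTCA and TATAAA, occurred in 7.81% and 13.6%. GC content was 54% for Pla2g7, 45.3% for Pla2g4a and 50.3% for Pla2g12a, against a median of 52.7% over all promoters. The exon read by each array probe was not analysed here, since its position was not among the sources used.

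The deposited values set how finely each gene could be read. Intensities of 0.01 or more carry 2 decimals, so 1 step at an intensity of 0.03 is 0.49 on the log2 scale. Pla2g12b was the brightest probe, with 84.4% of all probes dimmer, followed by Pla2g12a (71.9%), Pla2g7 (66.5%) and Pla2g4a (62.5%). Pla2g5 (45.8%), Pla2g6 (41.2%), Pla2g15 (35.2%) and Pla2g2d (32.1%) lay near the floor. Pla2g6, Pla2g15 and Pla2g2d took only 5 distinct values each in the 19 mice. The table holds no flag for spots above background, so a dim value here may contain little signal from the gene. These ranks describe the probes and do not order the transcripts by abundance.

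Hepatocyte markers were bright: the 7 of 12 listed genes that were measured had between 55.5% and 99.8% of probes dimmer. On that measure the 4 pancreas genes lay between 13.1% and 72.4%, overlapping them, and the 5 adipose genes between 8.02% and 40.7%. The summed normalised intensities of the pancreas and adipose genes were 0.328 to 1.06 and 0.0957 to 0.19. Between 22763 and 23511 of 23568 probes had a value per array. Alox5, the deleted gene, was read by a dim probe that did not differ detectably between the genotypes (log2 difference 0.21, SE 0.15, adjusted p = 0.349 on chow, limma; 0.10, SE 0.16, adjusted p = 0.86 on the atherogenic diet), so it does not check the labels. Knockout mouse D on chow stood apart, with an SD of the log2 ratio over all probes of 1.01 against 0.239 to 0.538 on the other arrays, and values that it moves are given without it too. Among 81 pairs of arrays against the same pool the lowest correlation was -0.33; the dyes are stated in the labels, so the direction of the ratios was kept.

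The first question was how the atherogenic diet altered these transcripts. Ratios against a pool of the same diet do not carry the diet's effect, so the mouse intensity was compared after loess and Aquantile normalisation. Pla2g7 rose on the diet in both genotypes. In wild type on chow the 5 mice measured intensities of 0.07, 0.09, 0.09, 0.09 and 0.07, and the 4 on the atherogenic diet 0.58, 0.86, 0.42 and 0.54. In knockouts the values were 0.12, 0.06, 0.15, 0.04 and 0.09 on chow and 0.40, 0.57, 0.39, 0.68 and 0.43 on the diet. Every mouse on the atherogenic diet lay above every mouse on chow, with the highest chow value at 0.15 and the lowest on the diet at 0.39. The normalised difference was 2.59 on the log2 scale in wild type (SE 0.35, 6.02-fold, 95% interval 3.62 to 10, limma adjusted p = 9.97e-05). In knockouts it was 2.38 (SE 0.33, 5.19-fold, 95% interval 3.21 to 8.39, limma adjusted p = 0.000161).

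The pools, read in the other dye, differed the same way. The chow pool read 0.08 to 0.10 for Pla2g7 over its 10 hybridisations and the atherogenic pool 0.56 to 0.63 over 9, a ratio of means on the log scale of 6.95 as deposited. These are repeated hybridisations of 1 pool per diet, so they carry no test. Ordered by mean normalised log2 level, Pla2g7 stood at -0.95 in wild type and -1.15 in knockouts on the atherogenic diet, and at -3.53 in knockouts and -3.54 in wild type on chow. Within each diet the genotypes overlapped.

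Pla2g4a, the cytosolic enzyme that frees arachidonate, showed a difference of similar direction with a far wider spread. Wild-type mice on chow measured 0.06, 0.10, 0.08, 0.10 and 0.07, and those on the atherogenic diet 0.40, 0.68, 0.16 and 0.24. Knockouts measured 0.13, 0.05, 0.15, 0.02 and 0.05 on chow and 0.24, 0.26, 0.14, 0.25 and 0.37 on the diet. The wild-type groups did not overlap, while knockout C on the diet, at 0.14, lay below knockout C on chow, at 0.15. In knockouts Pla2g4a rose by 1.78 on the log2 scale (SE 0.50, 3.44-fold, 95% interval 1.66 to 7.12, limma adjusted p = 0.0318). Without the widest array, knockout D on chow, the difference was 1.23 (SE 0.39, limma adjusted p = 0.0617). It also missed the threshold without knockout B or E on chow or knockout A, B, D or E on the diet, with limma adjusted p between 0.0545 and 0.0757. In wild type the difference was 1.73 (SE 0.53, 3.31-fold, 95% interval 1.53 to 7.16) and missed the threshold (limma adjusted p = 0.0555), which it passed without wild-type C on the diet (2.09, limma adjusted p = 0.0278). The pools read 0.08 to 0.11 on chow and 0.31 to 0.37 on the atherogenic diet, which is 3.60-fold. Mean normalised log2 levels ran from -1.84 in wild type and -2.18 in knockouts on the diet to -3.57 in wild type and -3.96 in knockouts on chow.

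**Figure D1:**
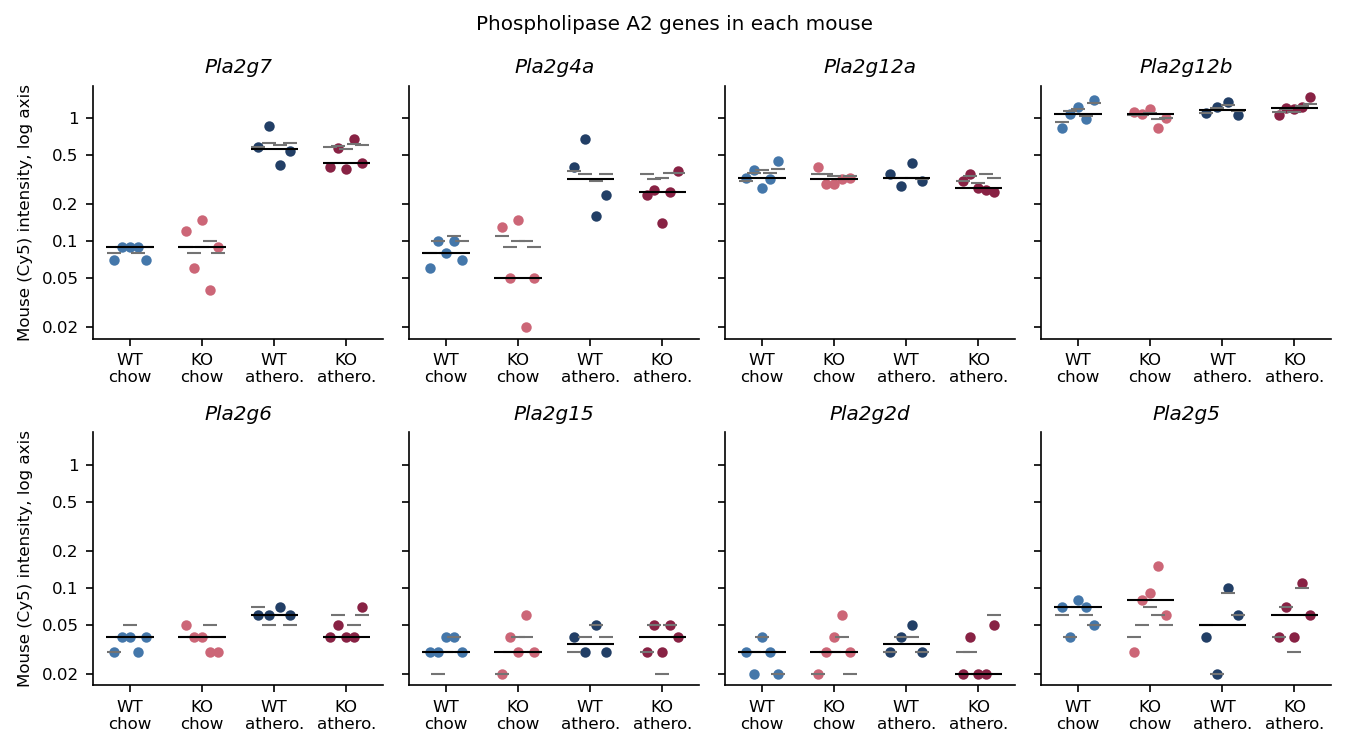
Mouse (Cy5) intensity as deposited, on a log axis, for the 8 phospholipase A2 genes in wild type (WT) and knockout (KO) on chow or the atherogenic diet. Points are mice, black lines group medians and grey dashes the pool on the same array; Pla2g7 separated the diets in every mouse, with chow at or below 0.15 and the atherogenic diet at or above 0.39.

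Of the 8 genes, 1 was called on the diet in wild type (Pla2g7, higher) and 2 in knockouts (Pla2g7 and Pla2g4a, both higher), at a Benjamini-Hochberg adjusted p under 0.05 over all probes. Over all 23344 probes tested, 7.16% were called in wild type and 9.61% in knockouts, with 4.62% and 5.23% called higher. The members' median differences were 0.08 in wild type and 0.09 in knockouts, against medians over all probes of -0.04 and -0.01. With the mouse intensity as deposited the median probe moved to 0.17 and 0.10, and 90.4% and 89.9% of the calls were higher, against 64.6% and 54.5% after normalisation. On that scale Pla2g7, Pla2g4a and Pla2g6 were all called in wild type.

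The other 6 genes did not pass in either genotype. Pla2g12a, the secreted group XIIA enzyme, came closest, with 0.40, 0.29, 0.29, 0.32 and 0.33 in knockouts on chow against 0.31, 0.35, 0.27, 0.26 and 0.25 on the diet. The deposited intensities overlapped and the normalised ones did not, and the difference was -0.50 (SE 0.16, limma adjusted p = 0.054). It passed in 6 of 18 alternatives, with limma adjusted p down to 0.0344 with a pseudocount of 0.05, and was -0.18 (limma adjusted p = 0.568) with the intensity as deposited. The mice whose omission let it pass were knockout C on chow (0.0454) and knockout B on the diet (0.0486). In wild type it was -0.25 (SE 0.17, limma adjusted p = 0.395). Pla2g6, the calcium-independent enzyme, measured 0.03 or 0.04 in every wild-type mouse on chow and 0.06 or 0.07 on the diet. These groups did not overlap, but their difference of 0.54 (SE 0.24, limma adjusted p = 0.168) spans only a few steps of rounding. In knockouts Pla2g6 measured 0.03 to 0.05 with chow against 0.04 to 0.07 with the diet, a difference of 0.26 (SE 0.22), or 0.02 (SE 0.16) without knockout D on chow.

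Pla2g12b, the catalytically inactive liver member, was measured most precisely. Its intensities ran from 0.84 to 1.40 in wild type on chow, 0.83 to 1.19 in knockouts on chow, 1.06 to 1.37 in wild type on the diet and 1.07 to 1.48 in knockouts on the diet. The difference between the diets was 0.01 in both genotypes, with 95% intervals from -0.29 to 0.31 in wild type and from -0.28 to 0.29 in knockouts. The lysosomal Pla2g15 lay between 0.02 and 0.06 in all mice and differed by -0.17 (SE 0.19) in wild type and 0.16 (SE 0.17) in knockouts. Pla2g2d, known from dendritic cells of lymphoid tissue, lay between 0.02 and 0.06 as well and differed by 0.15 (SE 0.22) and -0.35 (SE 0.21). Pla2g5, a secreted enzyme found in macrophages, lay between 0.02 and 0.15 and differed by -0.61 (SE 0.37) and -0.47 (SE 0.35). The SEs of these differences leave room for a change of modest size in these 3 genes.

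Averaging the diet's effect over both genotypes, a comparison added after the values had been seen, called 3 of the 8 genes where 21.7% of all probes were called, 10.5% higher and 11.1% lower. Pla2g7 was higher by 2.48 (SE 0.24, 5.59-fold, 95% interval 3.94 to 7.93, limma adjusted p = 6.02e-07). Pla2g4a was higher by 1.75 (SE 0.37, 3.37-fold, 95% interval 1.98 to 5.73, limma adjusted p = 0.00225). Pla2g12a was lower, at -0.38 (SE 0.12, 0.769-fold, 95% interval 0.649 to 0.913, limma adjusted p = 0.0279). The fall of Pla2g12a depended on the scaling: with the intensity as deposited it was -0.10 (SE 0.12, limma adjusted p = 0.609) beside a median of 0.15 over all probes. It also missed the threshold without wild-type E on chow (adjusted p = 0.0519), wild-type B on the diet (0.0685) or knockout E on the diet (0.0534). For Pla2g12b the averaged interval ran from -0.20 to 0.22.

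**Figure D2:**
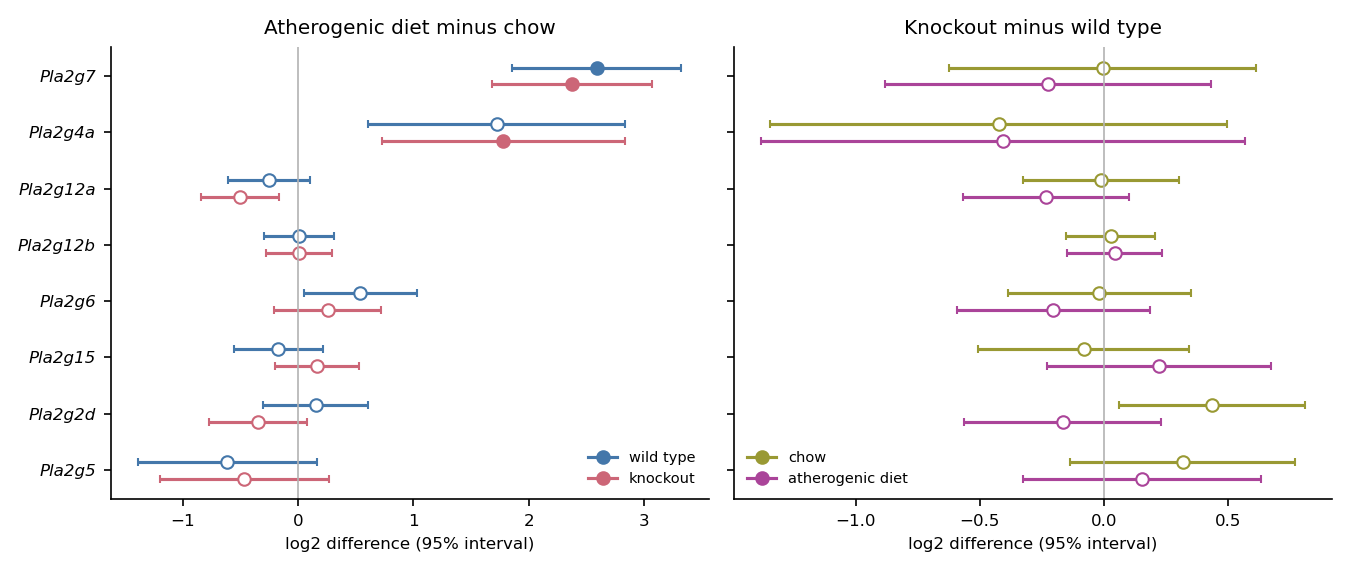
Log2 differences with 95% intervals for the 8 genes, for the diet within each genotype (left, normalised mouse intensity) and for the knockout within each diet (right, ratio of mouse to pool). Filled points passed an adjusted p under 0.05; Pla2g7 passed for the diet in both genotypes, Pla2g4a in knockouts, and no gene passed for the knockout.

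The second question was whether loss of 5-lipoxygenase altered these genes, read from the log2 ratio of each mouse to the wild-type pool of its diet. None of the 8 passed on chow, where 1.13% of all probes were called, and none on the atherogenic diet, where 0.0214% were. Nor did any pass for the difference of the knockout effects between the diets (0% of probes called) or for their average (6.76%). The lowest limma adjusted p among the 8 was 0.136, 0.618, 0.784 and 0.328 in these comparisons, and at an unadjusted p under 0.05 there were 1, 0, 1 and 0 genes. Over all probes, that unadjusted threshold was passed by 27.4%, 10.7%, 5.77% and 27.8%. The members' median differences were -0.01 on chow and -0.19 on the atherogenic diet, against 0 and 0.001 over all probes.

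Pla2g4a had the widest ratios. Wild-type mice on chow measured -0.42, 0, 0, -0.14 and -0.52, and knockouts 0.24, -0.85, 0.59, -2.32 and -0.85. Knockouts A and C lay above every wild-type mouse and the other 3 below every one, so the groups overlapped and the difference of -0.43 (SE 0.44, limma adjusted p = 0.544) was within their spread. Without knockout D it was -0.004 (SE 0.37). On the atherogenic diet wild-type mice measured 0.11, 0.96, -0.95 and -0.54, and knockouts -0.54, -0.30, -1.24, -0.53 and 0.04. The difference was -0.41 (SE 0.46, limma adjusted p = 0.777), with a 95% interval of the fold from 0.384 to 1.48. The authors' deposited table gives a p under 0.01 for Pla2g4a on 10 of the 19 arrays, 8 with the mouse below the pool and 2 above. These lie on 4 of 5 knockouts on chow, 3 of 4 wild types and 3 of 5 knockouts on the diet, and no wild type on chow. The authors' deposited table gives such a p on 4 arrays for Pla2g7, on 1 for Pla2g5 and on none for the other 5 genes.

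Pla2g7 differed by -0.01 on chow (SE 0.29, 95% interval of the fold 0.649 to 1.53) and by -0.23 on the atherogenic diet (SE 0.31, 0.542 to 1.34). Its ratios in knockouts on chow were 0.42, -0.42, 0.74, -1.32 and 0.17, wider than the -0.36 to 0.17 of wild type. Without knockout D the difference on chow was 0.30 (SE 0.23, limma adjusted p = 0.485). The difference of the knockout effects between the diets was tested on the ratios as deposited. The diet's effects above came from normalised mouse intensities, so their difference between the genotypes was tested only through the ratios. The test gave -0.22 for Pla2g7 (SE 0.43, limma adjusted p = 0.876) and 0.02 for Pla2g4a (SE 0.64, limma adjusted p = 0.996). Without knockout D on chow these were -0.53 (SE 0.32, limma adjusted p = 0.861) and -0.40 (SE 0.52, limma adjusted p = 0.943). With all mice the 95% intervals of these fold differences, 0.459 to 1.60 and 0.401 to 2.56, leave room for sizeable differences either way. The rises on the diet were therefore not shown to differ between the genotypes.

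Pla2g2d had the lowest p on chow. Wild-type ratios were 0 in 4 mice and -0.59 in mouse B, and knockout ratios 0, 0, 0.42, 0.59 and 0.59. The groups shared the value 0, and the difference of 0.43 (SE 0.18, unadjusted p = 0.0249, limma adjusted p = 0.136) corresponds to intensities between 0.02 and 0.06. Pla2g5 ratios in knockouts on chow were -0.42, 0.68, 0.36, 1.32 and 0.26, against 0 to 0.22 in wild type, a difference of 0.32 (SE 0.22, limma adjusted p = 0.345), or 0.10 (SE 0.17, limma adjusted p = 0.793) without knockout D. Without knockout A, the 1 mouse with a negative ratio, Pla2g5 was called (0.53, limma adjusted p = 0.0475), while 16.5% of all probes were called in that fit. Pla2g12b again had the narrowest bounds, with 95% intervals of the genotypes' fold of 0.899 to 1.15 (chow) and 0.902 to 1.17 (atherogenic diet). Pla2g12a differed by -0.01 (SE 0.15) and -0.23 (SE 0.16), Pla2g6 by -0.02 (SE 0.18) and -0.20 (SE 0.19), and Pla2g15 by -0.08 (SE 0.20) and 0.22 (SE 0.22).

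**Figure D3:**
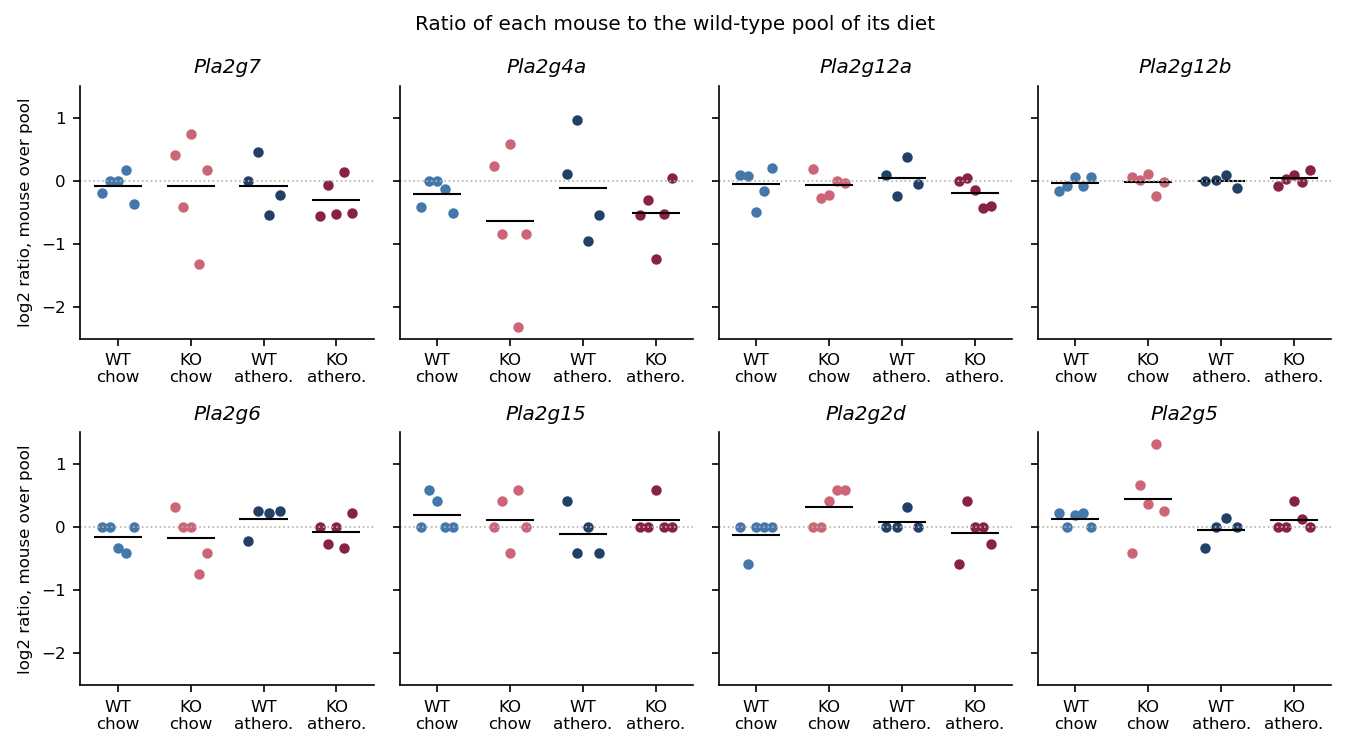
Log2 ratio of each mouse to the wild-type pool of its diet for the 8 genes; points are mice, black lines group means, and the dotted line marks equality with the pool. Genotypes overlapped for every gene on both diets, with no share over all probes given for comparison, and Pla2g4a spread most, from -2.32 to 0.96.

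Markers of other liver cells moved with the diet in the same mice. Of the 20 macrophage markers measured, 16 were called higher in wild type and 16 in knockouts, with none called lower. Their median differences were 1.46 and 1.21 against -0.05 and -0.01 over all genes. Their summed normalised intensity on chow was 24 to 33.3 in wild type and 23.2 to 36 in knockouts. On the diet it was 72 to 82.9 and 62 to 92.6, with none of the 20 at 0 on any array. The 4 with the lowest p in wild type were Itgax, an integrin of myeloid cells (10.3-fold), Lyz2, lysozyme (5.94-fold), and the complement genes C1qc (3.70-fold) and C1qb (3.05-fold). Pla2g7, at 6.02-fold, and Pla2g4a, at 3.31-fold, lay within the range of these 4, which were picked by lowest p. On the log2 scale the differences of Pla2g7 and Pla2g4a, 2.59 and 1.73, lay above the median of 1.46 over the 20 markers. In whole liver a change in the number of cells of a type and a change in RNA per cell cannot be told apart, and the part of macrophage content in the values of Pla2g7 and Pla2g4a was not tested.

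Other cell types moved less evenly. Neutrophil markers were called higher for 4 of 7 genes in wild type (Ngp, S100a9, S100a8 and Camp) and for 0 of 7 in knockouts. Knockout mice spread over summed normalised intensities of 0.84 to 5.01 on chow and 1.04 to 25.3 on the diet. Among dendritic cell markers 3 of 7 rose in wild type and 2 of 7 in knockouts, among stellate cell markers 2 of 6 in each, among cholangiocyte markers 2 and 1 of 6, and among endothelial markers 1 and 0 of 7. No lymphocyte marker of 8 passed in either. One hepatocyte gene of 7, Cyp2e1, rose in knockouts (1.71-fold). On chow the 7 neutrophil markers all measured higher in knockouts than in wild type, with a median difference of 1.46 and none called.

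Across mice of the same diet, Pla2g7 followed the macrophage markers. Over the 10 mice on chow the log2 ratio of Pla2g7 correlated with the mean ratio of the 20 markers at Pearson r = 0.854 (permutation p = 0.00076, adjusted p = 0.00456 over 6 relations) and Spearman rho = 0.826 (permutation p = 0.00444, adjusted p = 0.00888). Without the pair of mice farthest from the median of the markers r was 0.757. Over the 9 mice on the atherogenic diet r was 0.801 (exact permutation p = 0.0029, adjusted p = 0.0058), rho 0.90 (exact permutation p = 0.00203, adjusted p = 0.00888), and r 0.749 without the 2 farthest mice. The ratios share an array and a pool, and the part of this in the relation was not tested.

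Pla2g4a followed the markers less evenly. On chow r was 0.801 (permutation p = 0.0047, adjusted p = 0.00705) and rho 0.844 (permutation p = 0.0034, adjusted p = 0.00888), with r = 0.612 without the 2 farthest mice. On the atherogenic diet r was 0.518 (exact permutation p = 0.135, adjusted p = 0.135) and rho 0.611 (exact permutation p = 0.0869, adjusted p = 0.0869), with r = 0.375 without the 2 farthest. Pla2g4a and Pla2g7 correlated with each other at r = 0.916 on chow (permutation p = 0.00194, adjusted p = 0.0058) and rho = 0.77 (permutation p = 0.0119, adjusted p = 0.0178). Without knockouts C and D, the 2 farthest on the x axis, r was 0.597. On the atherogenic diet r was 0.721 (exact permutation p = 0.0346, adjusted p = 0.0415) and rho 0.736 (exact permutation p = 0.0282, adjusted p = 0.0338), and r fell to 0.293 without the 2 farthest mice, so that relation rests on them. Leaving out knockout D on chow alone gave r of 0.767 between the 2 genes and of 0.804 and 0.722 with the markers.

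**Figure D4:**
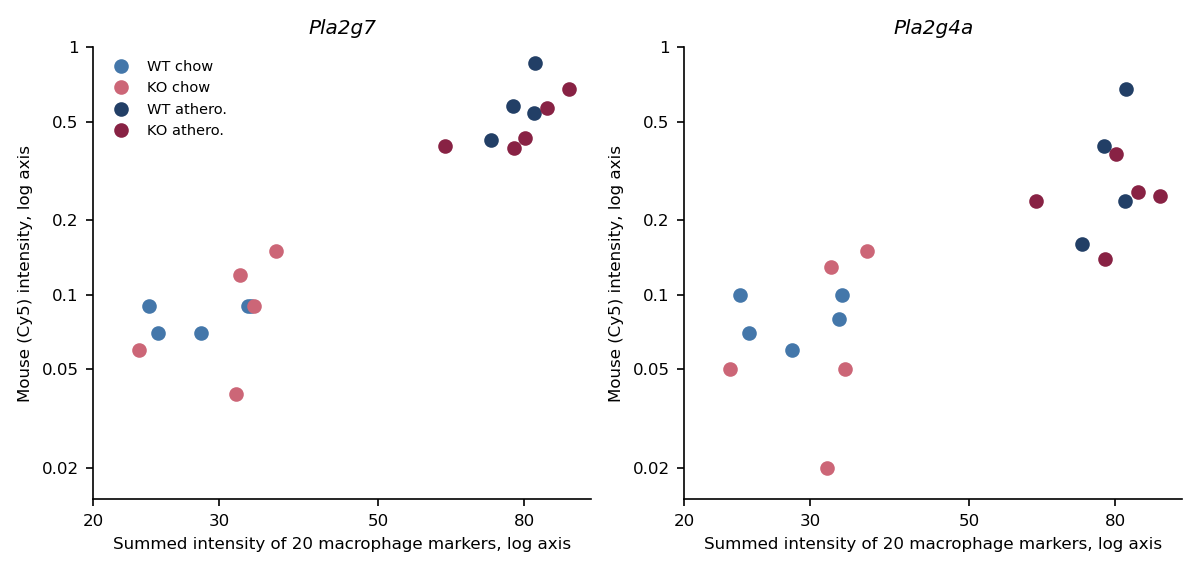
Mouse intensity as deposited of Pla2g7 (left) and Pla2g4a (right) against the summed normalised intensity of 20 macrophage markers in the same mouse, both on log axes. The diets form separate clouds, with the markers at 23.2 to 36 on chow and at 62 to 92.6 on the atherogenic diet.

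The genes whose normalised level was most like that of Pla2g7 over the 19 arrays were Lpcat2, which makes platelet-activating factor from its lyso form (Pearson r = 0.988), Rab19 (0.988), Oxct1, an enzyme of ketone body use (0.982), H2-M3 (0.98) and Ptpro (0.98). With group means removed these values were 0.932, 0.918, 0.903, 0.895 and 0.913. The genes most like Pla2g4a were Dock11 (0.976), Tusc3 (0.961), Pira1 (0.959), Rab8b (0.958) and Marcks (0.955), and those most like Pla2g12a were Spdya (0.83), Amigo1 (0.823), Ptpla (0.815), Zfp192 (0.806) and Txlna (0.793). The 17259 probes searched share the 19 arrays and their spread in quality with the member, so these are descriptions.

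Enzymes that act beside phospholipases A2 were followed through lists of related genes. The acyltransferase Lpcat2 rose on the diet with both of its probes, by 3.77- and 3.27-fold in wild type and by 3.84- and 2.81-fold in knockouts (limma adjusted p between 0.00019 and 0.00256). Lpcat1, which re-acylates lysophosphatidylcholine, rose by 2.34-fold (adjusted p = 0.00797) and 1.81-fold (adjusted p = 0.0403). They were the only genes of 17 for phospholipid reacylation called in either genotype, and none was called lower. The list's median difference was 0.21 in wild type and 0.19 in knockouts, against -0.05 and -0.01 over all genes.

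Among 9 regulators tied to calcium or annexins, the 3 annexins Anxa1, Anxa2 and Anxa5 rose in both genotypes and no other gene was called. Anxa2 rose by 4.39-fold in wild type and 4.08-fold in knockouts (limma adjusted p = 1.09e-05 and 1.32e-05), Anxa1, long described as an inhibitor of phospholipase A2, by 3.09- and 2.78-fold, and Anxa5 by 2.54- and 2.44-fold. The medians were 0.11 and 0.23.

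Of 17 genes of eicosanoid metabolism after arachidonate is freed, 2 rose and 1 fell in wild type, and 1 rose and 2 fell in knockouts. Alox5ap, the protein that presents arachidonate to 5-lipoxygenase, rose by 2.86-fold in wild type (limma adjusted p = 0.00259), and Ptgds, a prostaglandin D synthase, by 6.78-fold (adjusted p = 0.00164). Cyp4f14, a fatty acid hydroxylase that breaks down leukotriene B in the liver, fell to 0.454-fold (adjusted p = 0.00263). In knockouts Ptgds rose by 2.99-fold (adjusted p = 0.0422), while the prostaglandin E synthases Ptges and Ptges2 fell to 0.457- and 0.596-fold (adjusted p = 0.0394 and 0.0214). Cyp4f14 was also the 1 gene of the list that differed between the genotypes on the atherogenic diet, 2.15-fold higher in knockouts (limma adjusted p = 0.0482).

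Of 13 genes of lysophospholipid breakdown, Gdpd1, a lysophospholipase D, rose by 3.81-fold in wild type and 6.27-fold in knockouts (limma adjusted p = 0.00153 and 5.7e-05). Plb1, a phospholipase B, fell to 0.655-fold in wild type at 1 probe, while its other probe measured 1.05-fold (limma adjusted p = 0.887). In knockouts Lyplal1 rose by 1.83-fold and Lcat, which esterifies plasma cholesterol, fell to 0.631-fold. Gdpd3, of the same family as Gdpd1, was 4.66-fold higher in knockouts than in wild type on chow (limma adjusted p = 0.0427), the only call of these lists there. On the atherogenic diet Gdpd3 measured 4.44-fold higher in knockouts without passing (limma adjusted p = 0.164). It was called for the knockout effect averaged over the diets (4.55-fold, limma adjusted p = 0.00837).

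Of the 23 other members of the phospholipase A2 superfamily and their partners that were tested, none was called higher and 3 were called lower in wild type. These were Pla2g4d (0.49-fold), Plaa (0.547-fold) and Pla2g1b (0.561-fold, limma adjusted p = 0.00924, 0.0285 and 0.0489). In knockouts Pnpla6, a lysophospholipase of the endoplasmic reticulum, fell to 0.553-fold, Pla2g10 to 0.582-fold and Pla2g4d to 0.615-fold, and Pla2g2e rose by 1.47-fold (limma adjusted p = 0.0249, 0.0113, 0.0487 and 0.0272). All of these but Pnpla6 lay at probes with fewer than 50% of probes dimmer. The list's median differences were -0.04 and -0.19, against -0.05 and -0.01 over all genes. For the knockout effect averaged over the diets, 6.76% of all probes were called. There Pla2g2e (1.19-fold) and Pnpla3 (1.52-fold) of this list were higher in knockouts, and Acsl4 of the reacylation genes was lower (0.808-fold). Plb1 was higher at the probe not called on the diet (1.54-fold) and measured 1.01-fold at the other. The limma adjusted p of these calls lay between 0.0422 and 0.0446.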

How the data were processed

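Liver RNA was amplified in 2 rounds from 100 ng, per the labels' protocols, and the submitters' processing notes name Agilent Feature Extraction 8.5.1.1. For each array the deposited table has 3 columns, per the file headers: pool intensity, mouse intensity and the authors' p-value. How the authors corrected background and dyes, and their error model, is not given here. The authors' deposited series matrix holds log10 ratios of the same arrays, within 0.0165 on the log2 scale. Columns name the group and no replicate, so mice are lettered in column order.

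Probes with at least 3 values per group were kept (23344 of 23568). Log2 ratios as deposited, for genotype, and log2 mouse intensities after loess and Aquantile, for diet, were fitted across all probes with limma 3.58.1 in R 4.3.3, 4 groups in 1 fit. P-values were Benjamini-Hochberg adjusted over all probes. SE is the moderated standard error. Overlap of groups is described for the 8 genes without its share over all probes, so it does not say how unusual an overlap or a separation is. The labels number mice as replicates, and their number limits the precision. Numbers shared between genotypes did not pair the mice. Correlations used permutation tests in scipy. The 8 genes and the 15 lists (164 of 170 genes matched, 1 through a synonym) were chosen with earlier results of these data known. Named genes were all members, genes drawn from the up to 4 called per list and comparison by lowest p, and the 5 genes most like each called member. Not every call of the lists is named. Columns belonging to other samples numbered 0.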

Additional observations from a re-analysis of the deposited data

Results flagged for a closer look

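Of 64 groups of mice tested for 1 mouse far from the rest, 4 held such a value. Chance flags about 1 in 20 groups where values are continuous; that rate does not hold for the 3 groups below whose other mice are tied at 0. In wild type on the atherogenic diet, mouse A had a log2 ratio of -0.222 for Pla2g6 while the others lay at 0.222 to 0.263, with an intensity of 0.06 against 0.07 in the pool. In knockouts on the same diet, mouse C had a ratio of 0.585 for Pla2g15, with 0.03 against 0.02, while the others were at 0. For Pla2g2d, wild-type mouse B on chow had a ratio of -0.585 (0.02 against 0.03) and wild-type mouse C on the atherogenic diet one of 0.322 (0.05 against 0.04), and the others of each group were at 0. Each of these ratios is a single step of 0.01 in the deposited intensity.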

How the results depend on the processing

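Counts are of the 8 genes called. The share of all probes called moved over these alternatives as well. For the diet it ran from 3.91% to 9.85% in wild type, 3.62% to 15.1% in knockouts and 16.4% to 27.4% on average. For the knockout on chow the share ran from 0% to 16.5%. For the diet in wild type the count of 1 became 3 with the mouse intensity as deposited and 2 with a pseudocount of 0.05, without the dimmest 30% of probes, with robust eBayes and trend, or with only the groups compared; leaving out 1 mouse gave 1 to 2. Pla2g4a was the gene gained in these, with Pla2g6 as well on the deposited scale. For the diet in knockouts the count of 2 became 1 with only the groups compared, where Pla2g4a had a limma adjusted p of 0.0926. It became 3, with Pla2g12a, under the pseudocount, without the dimmest probes, with robust eBayes and trend, or with probes averaged per gene, and 1 to 3 without 1 mouse; it was 1 without knockout B, D or E on chow or knockout A, D or E on the diet. Pla2g4a was also lost without knockout B on the diet (limma adjusted p = 0.0545). Averaged over the genotypes the count of 3 became 2 to 5 without 1 mouse, 5 without knockout A on chow. For the knockout on chow it was 0 to 1. Pla2g7 was called in all 17 alternatives in wild type and all 18 in knockouts, and the averaged call of Pla2g4a in 26 of 26 and of Pla2g12a in 22 of 26. With the replicate number as a block, on the series matrix, 0 of 8 genes were called in each genotype comparison; over 9 same-numbered pairs the correlation of deviations ran from -0.427 to 0.11, and no mouse followed its own number best (0 of 9). No called gene reversed in these alternatives. Rounding of dim intensities limits Pla2g6, Pla2g15, Pla2g2d and Pla2g5.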
